A study of Mus musculus with 15 samples.

Results

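The genes described here encode the pore-forming and auxiliary subunits of voltage-gated potassium, sodium and calcium channels and their close relatives, the leak, inward rectifier, calcium-activated and HCN channels. They were taken by symbol from the array's annotation, as every gene of the Kcn letter families, the Scn alpha and beta families, Cacna1, Cacna2d, Cacnb and Hcn that had a row to itself. This gave 117 genes of the 22180 genes measured: 86 Kcn genes, 11 Scn genes, 17 calcium channel genes and 3 Hcn genes. All 117 are accounted for below. Kcnj13 and Kcnk3 share every row they have with a further symbol and are outside this count.

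The series compared RNA of newborn mouse cerebella on Affymetrix gene arrays, with 15 libraries in 3 groups of 5 on a C57BL/6 background. The DKO group is described as having both isoforms of the kinase Gsk-3 deleted in cerebellar granule neuron progenitors; the labels do not say whether its Gsk3a allele is lost in the germline. The Math1-Cre control group is described as lacking Gsk-3 beta alone, with the genotype Gska+- and GskBff plus Cre, and the no-Cre control group as having Gsk-3 intact, with Gska+- and GskBff and no Cre (for no-Cre 5 the GskB genotype is left out). Both control groups therefore carry 1 altered Gska allele, so the series has no library described as wild type for Gsk3a. The age is given as postnatal day 1 in one label and day 2 in another. Math1-Cre, driven by the Atoh1 enhancer, acts in granule neuron progenitors and some hindbrain neurons, and the tissue holds other cells it does not reach; the series' design adds that progenitors were enriched on a density gradient. Each library is described as cerebella of 1 replicate, and no litter or day is named, so a p-value here covers only the spread among these samples.

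Voltage-gated channels open or close with the membrane potential: sodium channels carry the upstroke of the action potential, potassium channels end it and set its rate, and calcium channels couple it to secretion and gene expression. Auxiliary subunits set how many pores reach the membrane and how fast they gate. Cerebellar granule neuron progenitors divide in the external layer of the newborn cerebellum and acquire their potassium, sodium and calcium currents as they leave the cell cycle and migrate inward, and the array reads them together with Purkinje cells, interneurons, glia, vessels and choroid plexus. In such bulk RNA fewer cells of a type and less RNA per cell cannot be told apart.

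The results turn on 5 members whose values separated the libraries by the level of the Gsk3a row (below), and the 250 bases before the start of each are shown because they were the members that row separated, 3 lower and 2 higher with a low row. The sequences are from RefSeq, build GRCm38.p6, read 5′ to 3′ on the strand of the gene, with matches to the motifs searched in capitals. Kcnh5 lies at chr12:75177333-75177582 on the minus strand, Kcnj3 at chr2:55435720-55435969 on the plus strand, Kcnd3 at chr3:105451640-105451889 on the plus strand, Kcnn4 at chr7:24370013-24370262 on the plus strand and Cacna2d3 at chr14:29721865-29722114 on the minus strand.
Kcnh5: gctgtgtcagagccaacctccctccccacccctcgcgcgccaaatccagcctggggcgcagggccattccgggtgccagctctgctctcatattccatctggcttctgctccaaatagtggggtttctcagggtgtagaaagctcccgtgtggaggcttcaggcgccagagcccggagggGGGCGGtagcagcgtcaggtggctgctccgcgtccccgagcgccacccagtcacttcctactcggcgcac
Kcnj3: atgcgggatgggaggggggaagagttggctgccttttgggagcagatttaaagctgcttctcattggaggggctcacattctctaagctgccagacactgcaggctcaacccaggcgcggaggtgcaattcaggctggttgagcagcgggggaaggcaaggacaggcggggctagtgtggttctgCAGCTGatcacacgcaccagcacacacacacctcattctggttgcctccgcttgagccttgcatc
Kcnd3: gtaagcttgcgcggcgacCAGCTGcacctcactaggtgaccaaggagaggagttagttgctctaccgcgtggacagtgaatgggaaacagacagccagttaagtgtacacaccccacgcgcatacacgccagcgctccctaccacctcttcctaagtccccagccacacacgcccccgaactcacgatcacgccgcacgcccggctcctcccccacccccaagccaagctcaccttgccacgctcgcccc
Kcnn4: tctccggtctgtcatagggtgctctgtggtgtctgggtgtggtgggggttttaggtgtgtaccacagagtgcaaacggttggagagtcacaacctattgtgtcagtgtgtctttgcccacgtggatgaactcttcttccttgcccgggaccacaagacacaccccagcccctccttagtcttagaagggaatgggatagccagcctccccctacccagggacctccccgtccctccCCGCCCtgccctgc
Cacna2d3: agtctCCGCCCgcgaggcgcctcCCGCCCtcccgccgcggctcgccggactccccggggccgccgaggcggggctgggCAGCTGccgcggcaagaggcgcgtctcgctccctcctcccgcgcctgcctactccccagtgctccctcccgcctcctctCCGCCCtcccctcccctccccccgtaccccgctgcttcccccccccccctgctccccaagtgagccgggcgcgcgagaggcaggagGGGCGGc
In all, 90 of the 117 members matched this table, with 124 promoters. The motifs searched, on both strands, were the TCF/LEF sites CTTTGAA and CTTTGAT (the factors through which WNT signalling acts), the E-box CAGCTG (bound by basic helix-loop-helix factors, the class of Atoh1), the RE1 half-site TTCAGCACC (the silencer element of neuronal genes) and the GC box GGGCGG; no matches overlapped. None of the 5 windows held either TCF/LEF site or the RE1 half-site, which are in 4.46%, 3.21% and 0.301% of all 32851 promoters of that length. The E-box was in the windows of Kcnj3, Kcnd3 and Cacna2d3, against 13.0% of all promoters and 23.4% of the members' promoters. The GC box was in those of Kcnh5, Kcnn4 and Cacna2d3, the last with 4 matches, against 32.7% of all promoters and 44.4% of the members'. A match is a run of letters and not a shown binding site. The Cacna2d3 window had the most CpG pairs of the 5 (30), followed by Kcnd3 (18), Kcnh5 (16), Kcnj3 (7) and Kcnn4 (6).

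The libraries did not all follow their labels. The row that carries Gsk3a read below 9.0 in DKO 2, 4 and 5 and in Math1-Cre 1 and 2 (7.89 to 8.27), and from 9.37 to 9.59 in the other 10 libraries, which include those labelled DKO 1 and DKO 3. This row thus went against the label in 4 libraries, those labelled Math1-Cre 1, Math1-Cre 2, DKO 3 and DKO 1. Gsk3b ranged from 10.59 to 10.98 and separated no label; where on the gene its probes lie is not given in the sources used here, so it checks nothing. Each comparison is given over all 15 libraries and over the 11 whose Gsk3a row does not go against the label (DKO 2, 4 and 5, Math1-Cre 3, 4 and 5, and the 5 no-Cre libraries). No library was moved to another group, and the grouping by Gsk3a row is a description with no test, because it rests on a measured value. The arrays of DKO 3, 4 and 5 and no-Cre 4 had a narrower spread of values (interquartile range over genes 4.00 to 4.12) than the other 11 (4.22 to 4.40). Counts of members called by label are also given without them. The grouping by the Gsk3a row was repeated without each of them in turn, but not without all 4. Atoh1, which defines granule progenitors, was above background in every library (7.81 to 9.31).

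Many of the channel genes were well above background in these cerebella. Background was set per array as the 95th percentile of the log2 level of 1394 olfactory and vomeronasal receptor genes, between 4.65 and 5.58. By this measure 61 of the 117 members were above background in all 15 libraries, 26 in some and 30 in none. The share was highest in the calcium and HCN families, where 14 of 17 and 3 of 3 members were above it in all libraries, against 7 of 11 Scn genes and 37 of 86 Kcn genes. Levels below are log2 expression of a gene's own row in the 5 no-Cre libraries, as mean ± SD, and are not to be ranked between genes, whose probes differ.

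**Figure D1:**
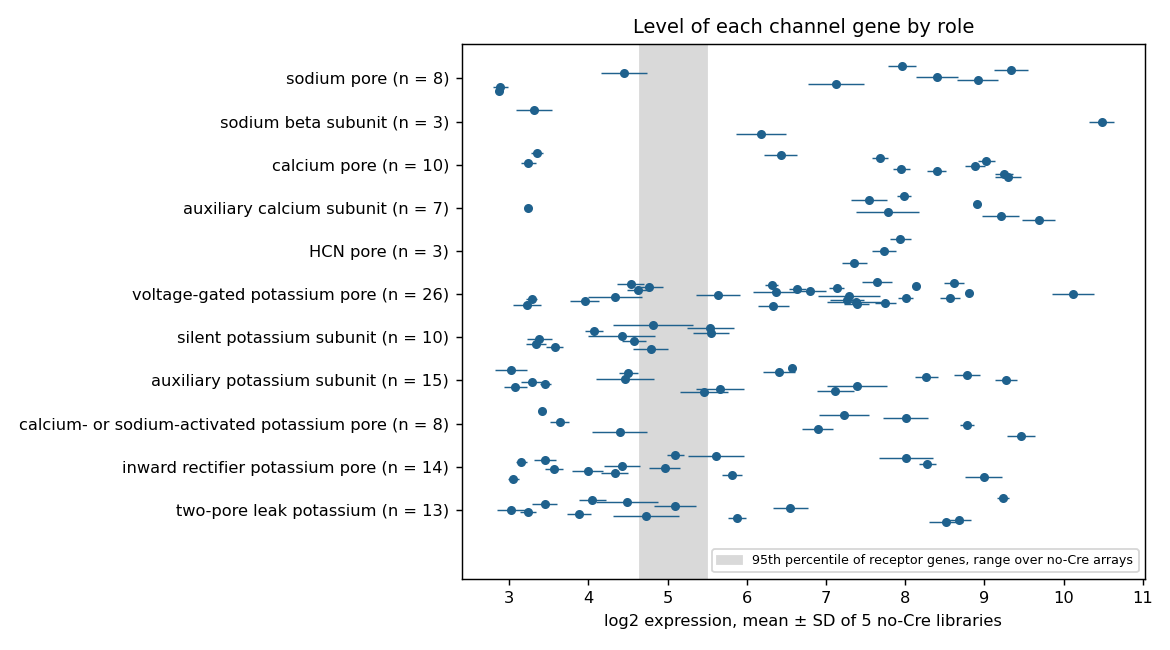
Log2 expression of each of the 117 channel genes in the 5 no-Cre libraries (points, mean; bars, SD), arranged by role, with the 95th percentile of receptor genes on the no-Cre arrays as a grey band. All 3 HCN genes lie above the band and 8 of 10 calcium pores do, while no silent potassium subunit was above background in every library; positions of different genes rest on different probes.

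Among the 8 sodium pores, 5 were above background in all libraries. Scn8a, the pore concentrated at the axon initial segment of mature neurons, read 9.33 ± 0.21 (SD, n = 5), and Scn2a, Scn3a, Scn9a and Scn1a read 8.92 ± 0.26, 8.40 ± 0.26, 7.96 ± 0.18 and 7.12 ± 0.36. Scn10a and Scn11a, the pores of pain-sensing peripheral neurons, were above it in none (2.87 ± 0.04 and 2.89 ± 0.10). Scn3b, a beta subunit that modulates gating and delivery of the pore, read 10.48 ± 0.16, Scn2b read 6.18 ± 0.32, and Scn4b was below background in every library (3.31 ± 0.22).

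Of the 10 calcium pores, 8 were above background throughout: the P/Q-type Cacna1a (9.30 ± 0.16), the N-type Cacna1b (9.25 ± 0.12), the R-type Cacna1e (8.88 ± 0.13), the L-type Cacna1c and Cacna1d (8.40 ± 0.12 and 7.95 ± 0.11) and the low-threshold T-type Cacna1g, Cacna1h and Cacna1i (9.03 ± 0.11, 7.68 ± 0.10 and 6.43 ± 0.20). The retinal Cacna1f and the muscle Cacna1s were below it in every library. The alpha2-delta subunits Cacna2d1, Cacna2d2 and Cacna2d3 and the cytoplasmic beta subunits Cacnb1, Cacnb2 and Cacnb4 were above it in all 15, with Cacna2d1 at 9.69 ± 0.21 and Cacnb1 at 8.91 ± 0.05, and Cacna2d4 in none. The HCN pores, which open on hyperpolarisation and pace firing, read 7.36 ± 0.16 (Hcn2), 7.74 ± 0.15 (Hcn3) and 7.94 ± 0.13 (Hcn4).

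Of the 26 voltage-gated potassium pores, 18 were above background in all libraries and 3 in none. Kcnd2 and Kcnd3, pores of the fast transient A-type current, read 10.12 ± 0.27 and 8.81 ± 0.06. Kcnq3, a pore of the M-current that damps repetitive firing, read 8.62 ± 0.12, the delayed rectifier Kcnb2 8.57 ± 0.12, the ERG-type Kcnh7 8.14 ± 0.05, the fast-spiking Kcnc1 8.01 ± 0.10 and Kcna3 7.75 ± 0.13. The 10 electrically silent subunits, which make no channel alone and modify Kcnb pores, were above background in all 15 libraries in no case, in some in 6 (Kcns2 at 5.55 ± 0.23) and in none in 4.

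Leak and inward rectifier channels, which hold the resting potential, were read for a minority of genes. Of 13 tandem-pore leak genes 4 were above background throughout, with Kcnk9, the acid-sensitive leak channel of granule neurons, at 9.23 ± 0.08, Kcnk10 at 8.68 ± 0.15 and Kcnk1 at 8.51 ± 0.21. Of 14 inward rectifiers 4 were: Kcnj10, the channel of glia that buffers potassium (8.99 ± 0.23), the G protein-gated Kcnj3 and Kcnj6 (8.28 ± 0.11 and 8.01 ± 0.34) and the ATP-sensitive Kcnj11 (5.81 ± 0.13). Of 8 pores opened by calcium or sodium 5 were, among them the large-conductance Kcnma1 (9.46 ± 0.18), the small-conductance Kcnn3 (8.78 ± 0.09) and the sodium-activated Kcnt1 (8.01 ± 0.28). Of 15 auxiliary potassium subunits 6 were, with Kcnip1, a calcium-binding partner of Kcnd pores, at 9.27 ± 0.13 and Kcnab2, a cytoplasmic beta subunit, at 7.12 ± 0.23.

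The no-Cre libraries differed most among themselves in Kcnk13, Kcnv2, Kcnk6, Kcns1, Kcne2 and Kcnc4. Kcnk13 ranged from 4.06 to 5.20 and Kcnv2 from 4.25 to 5.38 over these 5 libraries, and Kcnk6 and Kcns1 from 3.98 to 5.07 and from 4.04 to 5.11. Kcne2 and Kcnc4, above background in all 5, ranged from 6.94 to 7.90 and from 6.93 to 7.87. All of these but Kcne2 had their lowest no-Cre value on the narrow array of no-Cre 4. Without it the lowest values were 4.76 for Kcnk13, 4.43 for Kcnv2, 4.34 for Kcnk6, 4.09 for Kcns1 and 6.95 for Kcnc4, so that of Kcnk13 moved most.

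Read by the Gsk3a row, 5 of the 117 members (4.27%) had values in the 5 libraries with a low row that did not overlap those of the other 10, against 1.51% of all genes (334 of 22180; 0.663% higher and 0.843% lower with the low row). Kcnh5, Kcnj3 and Kcnd3 were lower with the low row, and Kcnn4 and Cacna2d3 were higher. The median over members of the difference in medians was -0.018, against -0.006 over all genes.

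Kcnh5, a pore of the ether-a-go-go family of voltage-gated potassium channels, read 7.69, 6.65, 7.13, 6.66 and 6.64 in DKO 1 to 5, 6.94, 6.88, 7.42, 7.46 and 7.20 in Math1-Cre 1 to 5, and 7.09, 7.15, 7.28, 7.03 and 7.12 in no-Cre 1 to 5. The 5 libraries with a low Gsk3a row, at 6.64 to 6.94, were all below the other 10, whose lowest was 7.03, and the highest value was in the library labelled DKO 1. Within the DKO label the mean was 0.76 lower in the 3 libraries with a low row than in the 2 with a high row, and within the Math1-Cre label 0.45 lower in 2 than in 3. The direction within each label follows from the lack of overlap and is no further check of it.

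Kcnj3, the GIRK subunit through which G protein-coupled receptors slow firing, read 8.20, 7.95, 8.13, 7.76 and 7.86 in DKO 1 to 5, 7.87, 7.93, 8.25, 8.20 and 8.09 in Math1-Cre 1 to 5, and 8.37, 8.38, 8.33, 8.14 and 8.19 in no-Cre 1 to 5. The low-row libraries, at most 7.95, lay under the others, at least 8.09. A second row of Kcnj3 with a mean of 4.96 read 4.36 to 4.83 in the low-row libraries and 4.60 to 5.45 in the others, so on that row the groups overlapped.

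Kcnd3, the A-type pore described above, read 8.71, 8.58, 8.90, 8.24 and 8.48 in DKO 1 to 5, 8.57, 8.49, 8.68, 8.76 and 8.90 in Math1-Cre 1 to 5, and 8.84, 8.86, 8.82, 8.72 and 8.78 in no-Cre 1 to 5. The low-row libraries (8.24 to 8.58) were again under the rest (8.68 to 8.90), with DKO 4, a narrow array, lowest. Within the DKO label the means differed by 0.37 and within the Math1-Cre label by 0.25, in both cases lower with the low row. Here too the direction follows from the lack of overlap.

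Kcnn4, the intermediate-conductance calcium-activated channel known from red cells, lymphocytes and epithelia, read 3.51, 4.54, 3.46, 4.02 and 4.10 in DKO 1 to 5, 4.33, 4.31, 3.79, 3.69 and 3.90 in Math1-Cre 1 to 5, and 3.62, 3.71, 3.71, 3.43 and 3.70 in no-Cre 1 to 5. All 5 low-row libraries (4.02 to 4.54) exceeded the other 10 (3.43 to 3.90). Every one of these values lies below that array's background level, where differences are compressed and the presence of the transcript is not shown.

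Cacna2d3, an alpha2-delta subunit that carries calcium pores to the membrane, read 7.60, 8.35, 8.11, 8.54 and 8.22 in DKO 1 to 5, 8.50, 8.74, 7.94, 7.80 and 7.56 in Math1-Cre 1 to 5, and 7.93, 7.60, 8.12, 7.17 and 8.08 in no-Cre 1 to 5. The low-row libraries (8.22 to 8.74) were above the other 10 (7.17 to 8.12) by a margin of 0.10 on the log2 scale, smaller than the SD of 0.40 among the no-Cre libraries. The lowest value was on the narrow array of no-Cre 4. Margins were also narrow for the other members described: 0.08 for Kcnh5, 0.10 for Kcnd3, 0.12 for Kcnn4 and 0.14 for Kcnj3.

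**Figure D2:**
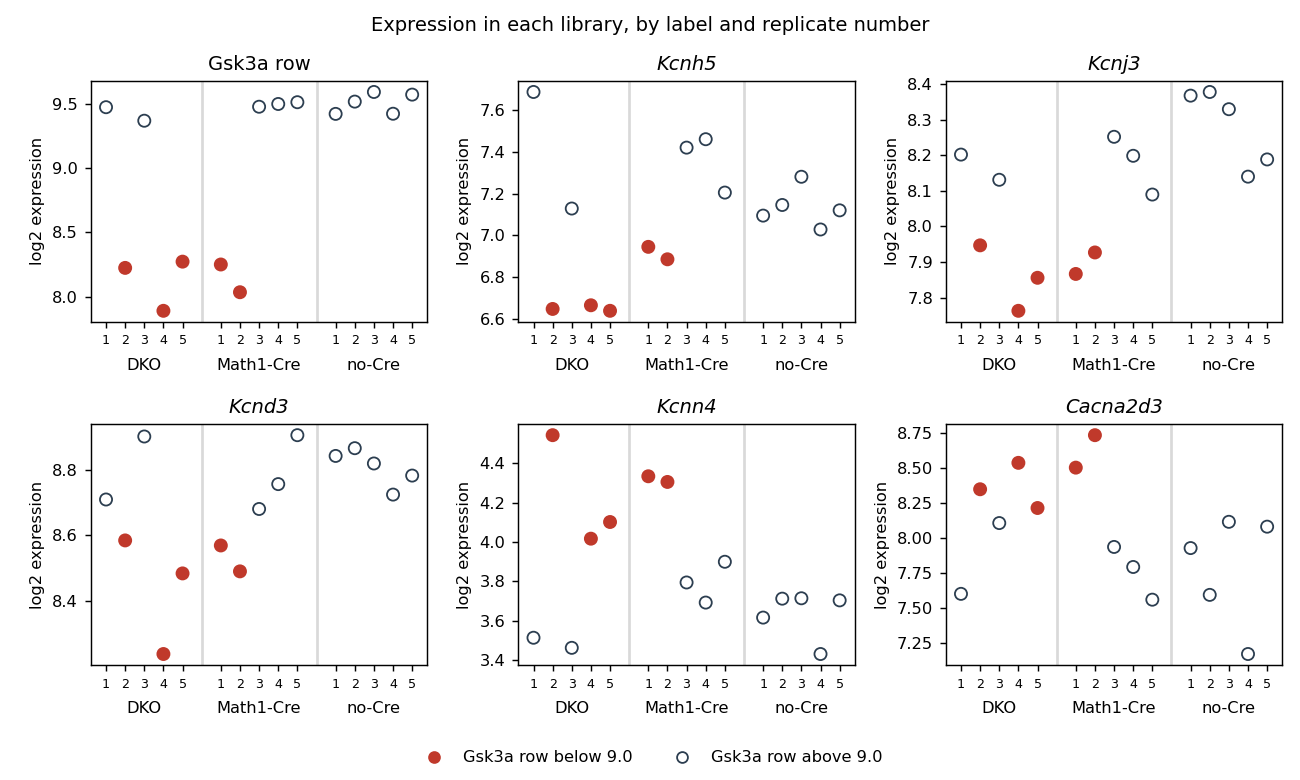
Log2 expression of the Gsk3a row and of Kcnh5, Kcnj3, Kcnd3, Kcnn4 and Cacna2d3 in each of the 15 libraries, by label and replicate number; filled points are the 5 libraries whose Gsk3a row is below 9.0. In each panel the filled points lie on one side of the open ones, with DKO 1 and DKO 3 among the open points and Math1-Cre 1 and 2 among the filled.

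Further members came close to this order. Cacna1i, a T-type pore, read 6.71 to 7.30 in the low-row libraries and 6.13 to 6.78 in the others, with DKO 5 and Math1-Cre 3 in the overlap. Hcn2 read 7.51 to 8.09 against 7.17 to 7.58, with DKO 2 lowest of the low-row libraries. Kcnj6, the partner of Kcnj3 in GIRK channels, read 7.54 to 7.95 against 7.59 to 8.50, and within both labels its mean was lower with the low row, by 0.64 (DKO) and 0.49 (Math1-Cre). Kcnj2 read 3.85 to 4.24 against 3.91 to 4.81, but its order held only within the Math1-Cre label, where the low-row mean was 0.85 lower, and within DKO the means were 0.02 higher. Kcnj2 was above background in 2 of the 15 libraries. With each array centred on its median, Cacna1i joined and Kcnd3 and Kcnj3 left, giving 4 members without overlap, against 1.59% of all genes. Leaving out each library in turn gave 5 or 6 members, against 1.54% to 2.12% of all genes. The 5 members described above must be among them each time, because leaving out a library cannot create an overlap. Their presence is therefore no check of the order.

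The low-row libraries also differed in cell type markers. The mean of 10 granule progenitor genes was 7.60 to 7.84 in them and 8.09 to 8.51 in the others, without overlap, and that of 12 WNT feedback genes 7.68 to 7.90 against 6.28 to 6.65. The means of 12 genes of differentiating granule neurons (8.47 to 8.58 against 8.44 to 8.83), of 9 Purkinje cell genes (9.50 to 9.64 against 9.42 to 9.70) and of 9 GABAergic interneuron genes (7.85 to 8.14 against 7.81 to 8.33) overlapped. Over the 11 libraries limma called 3 of the 10 progenitor genes lower in DKO than in no-Cre (Atoh1, Mycn and Nhlh1). It called 2 lower than in Math1-Cre (Mycn and Nhlh1). In each comparison 1 of the 12 differentiating granule neuron genes was called higher and 1 lower. Of all genes 0.437% were called higher and 0.64% lower against no-Cre, and 0.289% and 0.252% against Math1-Cre. None of these progenitor or differentiating neuron genes was called over 15. The part of these cells in the values of the 5 channel genes was not tested.

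Taken by label, the DKO group was compared with the no-Cre group, which asks what deletion of both kinases changes in this tissue. Over all 15 libraries none of the 117 members passed the limma test after Benjamini-Hochberg adjustment over all genes, where 0.0721% of all genes (16) did, 0.018% higher and 0.0541% lower. At an unadjusted p under 0.05, 8 members were higher and 12 lower in DKO, against 5.54% and 11.9% of all genes, and the median difference was 0.001 over members and -0.016 over all genes. With each array centred on its median the balance turned: 30 members were higher and 4 lower, against 3716 and 991 of all genes, and the median of all genes moved up by 0.103, to 0.087, with that of the members at 0.104.

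The members with the largest differences were these. Kcne2, an auxiliary subunit that works with Kcnq1 in transporting epithelia, was lower in DKO by 1.06 ± 0.34 (SE) on the log2 scale (limma, adjusted p = 0.152). Kcnk12, a leak channel subunit with little current of its own, differed by -0.53 ± 0.13 (adjusted p = 0.0845, limma). It read 5.24, 5.36, 4.90, 5.53 and 5.68 in DKO 1 to 5, 5.85, 5.67, 5.54, 5.97 and 5.87 in Math1-Cre 1 to 5, and 5.85, 5.93, 6.04, 5.73 and 5.82 in no-Cre 1 to 5, so all 5 DKO values lay under all 5 no-Cre values.

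Kcns1, a silent subunit, differed by -0.51 (adjusted p = 0.293, limma), with the 5 no-Cre values spread from 4.04 to 5.11. On the higher side were Kcnh4, an ELK-type pore (0.43 ± 0.11, adjusted p = 0.0978, limma), and Kcnmb2, which makes large-conductance channels inactivate (0.42 ± 0.12, adjusted p = 0.126). Kcnh4 read 7.41, 7.12, 7.22, 6.95 and 6.66 in DKO 1 to 5, 6.93, 6.91, 6.94, 6.82 and 6.78 in Math1-Cre 1 to 5, and 6.50, 6.74, 6.59, 6.76 and 6.59 in no-Cre 1 to 5. Its DKO values overlapped the no-Cre values only in DKO 5, a narrow array that also read lowest in DKO for Kcnmb2. Without DKO 5 the limma test called 4 members, Kcne2, Kcnk12, Kcnh4 and Kcnmb2 (adjusted p from 0.0312 to 0.0402), against 191 of the 22180 genes. Without no-Cre 4 it called 6, Kcnk12, Kcnh4, Kcna4, Kcnh6, Kcnk13 and Kcnq5, against 1546 of all genes. Without all 4 narrow arrays it called 5, Kcnk12, Kcnh4, Kcnh6, Kcnmb1 and Kcnq5, against 804 of all genes. That fit kept only DKO 1 and DKO 2 in the DKO group, and the Gsk3a row of DKO 1 goes against its label. Kcnh6 and Kcnk13 were above background in 5 of the 15 libraries each and Kcnmb1 in 1.

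Over the 11 libraries, 3 members passed, against 1.08% of all genes (239; 97 higher and 142 lower, or 146 and 83 with each array centred on its median). Kcnh5 fell by 0.48 ± 0.09 (SE), a 1.40-fold difference (limma, adjusted p = 0.0208), and Kcnj3 fell by 0.43 ± 0.09, a 1.34-fold difference (limma, adjusted p = 0.0435). Kcnn4, below background throughout, rose by 0.58 ± 0.12 (SE) on the log2 scale (limma, adjusted p = 0.0454). The 3 DKO values lay outside the range of the 5 no-Cre values for each of the 3 genes. These are the same libraries in which the Gsk3a row separates, so the calls are not a further check of that order.

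The call of Kcnh5 ended without DKO 2, DKO 4, DKO 5, no-Cre 2 or no-Cre 5 (adjusted p from 0.011 to 0.0898 over the 11 libraries left out in turn, limma), and without the narrow arrays (adjusted p = 0.0849). It also ended with quantile normalization (adjusted p = 0.0717), with each array centred on its median (0.0692) and with array spread as a covariate (0.0705), where the differences were -0.38, -0.39 and -0.44 (limma). The call of Kcnj3 ended with centring and with the covariate (adjusted p = 0.0959 and 0.121, limma), and that of Kcnn4 with quantile normalization (adjusted p = 0.161, limma). Both calls also ended with the compared groups alone (adjusted p = 0.0971 for Kcnj3 and 0.103 for Kcnn4, limma). With the replicate number as a block the adjusted p was 0.231 and 0.119 (limma). With the shared description code as a block it was 0.0633 and 0.0705 (limma). Without the narrow arrays, which leaves DKO with 1 library, Kcnj3 differed by -0.37. With centring the 2 members called were Cacna1i and Kcnn4, both higher in DKO. The calls of Kcnj3 and Kcnn4 ended on leaving out any library other than no-Cre 4. Without no-Cre 4, 6 members were called, Kcnh5, Kcnj3 and Kcnn4 with Kcna4, Kcnd3 and Kcnq5, against 1060 of the 22180 genes. Members short of the threshold included Cacna1i (0.63 ± 0.15, adjusted p = 0.0873), Kcnd3 (-0.37 ± 0.09, adjusted p = 0.101), Kcnip3, a calcium-binding subunit of Kcnd channels and a transcriptional repressor (-0.43 ± 0.11, adjusted p = 0.116), Hcn2 (0.40 ± 0.13, adjusted p = 0.207), Cacna2d3 (0.59 ± 0.20, adjusted p = 0.228) and Kcne2 (-0.81, adjusted p = 0.398), all by limma. In all 7 members had an unadjusted p under 0.05 and a higher value in DKO and 11 a lower one, against 4.58% and 8.10% of all genes, and the medians were -0.031 and -0.023. With centring these counts were 14 higher and 7 lower, against 2238 and 856 of all genes, and the medians 0.067 and 0.074.

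Set against the Math1-Cre controls, which are described as lacking Gsk-3 beta, the comparison asks what the further loss of Gsk3a changes with Cre in both groups; it shares the DKO libraries with the comparison above. Over 15 libraries limma called none of the 117 members and 0.55% of all genes (122). At an unadjusted p under 0.05, 1 member was higher and 15 were lower, against 7.51% and 15.4% of all genes. A negative difference was found for 84 of the 117, with a median of -0.073 against -0.049 over all genes, and centring each array on its median raised the median of all genes by 0.137, to 0.088, and that of the members to 0.065. The balance turned with it, to 17 members higher and 6 lower at an unadjusted p under 0.05, against 5034 and 910 of all genes.

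Kcnh6, an ERG-type pore, differed by -0.35 ± 0.09 (limma, adjusted p = 0.0765), the sodium beta subunit Scn3b by -0.35 ± 0.10 (limma, adjusted p = 0.078) and Kcnk12 by -0.43 ± 0.13 (limma, adjusted p = 0.0876). Kcnh6 was above background in 5 of the 15 libraries, and Kcna5 and Kcnmb1, named below, in 1 each. Scn3b read 10.39, 10.45, 10.04, 10.11 and 10.34 in DKO 1 to 5, 10.65, 10.66, 10.69, 10.65 and 10.44 in Math1-Cre 1 to 5, and 10.42, 10.42, 10.74, 10.34 and 10.48 in no-Cre 1 to 5. Its Math1-Cre values lay between 10.65 and 10.69 in 4 libraries, with Math1-Cre 5 apart at 10.44, and DKO 3 and DKO 4, both narrow arrays, were lowest. The largest differences were those of Kcne2 (-0.68), Kcna5 (-0.54) and Kcns2 (-0.47) on the lower side and of Cacna1a (0.24), Kcnmb1 (0.23) and Kcnh4 (0.20) on the higher, none past the threshold. Without no-Cre 4 limma called Kcna4, Kcnh6 and Scn3b, against 1288 of the 22180 genes, and without DKO 5 Kcnk12, against 402. Without the 4 narrow arrays it called Kcnk12 and Kcnmb1, against 613 of all genes, with only DKO 1 and DKO 2 left in the DKO group.

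Over the 11 libraries Kcnh5 fell by 0.71 ± 0.10, a 1.64-fold difference (limma, adjusted p = 0.00574), and was the only member of the 117 called, against 0.541% of all genes (120; 0.289% higher and 0.252% lower). The 3 DKO values (6.64 to 6.66) lay below the 3 Math1-Cre values (7.20 to 7.46) and below the 5 no-Cre values (7.03 to 7.28). The call held on leaving out each of the 11 libraries (adjusted p from 0.0048 to 0.0417, limma) and ended without the narrow arrays, which leaves DKO with 1 library (adjusted p = 0.0536), and with the compared groups alone (adjusted p = 0.064). With quantile normalization and with centring it stayed called, at -0.56 and -0.57 (limma, adjusted p = 0.0252 and 0.0219). Kcnj2, a classical inward rectifier, differed by -0.59 (adjusted p = 0.106), Kcne2 by -0.51, Cacna2d3 by 0.60, Cacna1i by 0.44 and Kcnn4 by 0.42, none past the limma threshold. Of these, Kcnj2 was above background in 2 of the 15 libraries and Kcnn4 in none. At an unadjusted p under 0.05, 4 members were higher in DKO and 13 lower, against 5.53% and 10.3% of all genes, and the medians were -0.121 over members and -0.060 over all genes. With centring this too turned, to 7 members higher and 3 lower, against 2925 and 720 of all genes, with medians of 0.022 and 0.083.

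**Figure D3:**
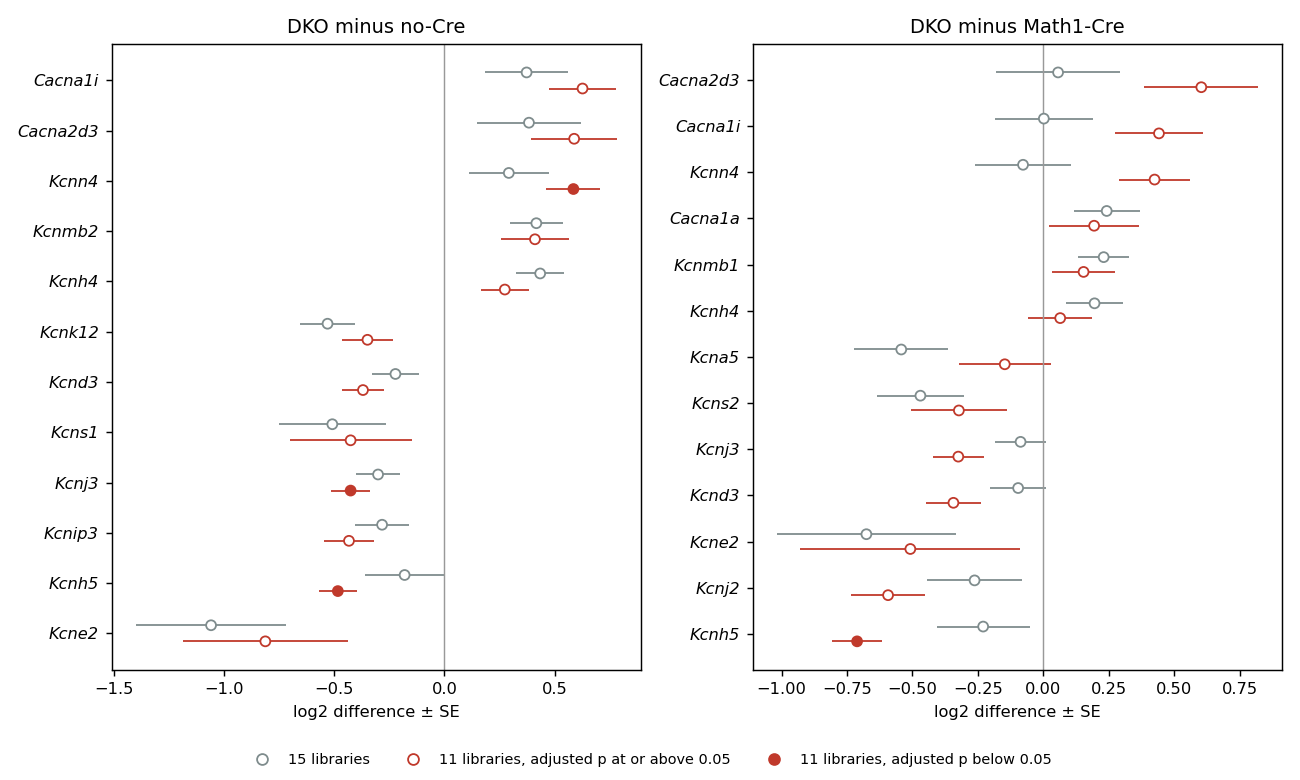
Log2 difference ± SE (limma) for the called members, those that separate by the Gsk3a row and the members with the largest differences in DKO against the no-Cre control and against the Math1-Cre control; grey, all 15 libraries, red, the 11 whose Gsk3a row does not go against the label, filled where the adjusted p is below 0.05. Only Kcnh5 is filled in both panels, and Kcnj3 and Kcnn4 are filled in the no-Cre panel.

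The 2 control groups, which differ by Cre and, as described, by the loss of Gsk-3 beta, were compared with each other. Effects of Cre and of that loss cannot be told apart here. Limma called none of the 117 members and 0.0% of the 22180 genes, over 15 or 11 libraries. At an unadjusted p under 0.05, 6 members were higher and 1 lower in Math1-Cre over 15 libraries, against 2.20% and 1.03% of all genes, and 3 and 1 over 11, against 1.63% and 0.568%. Kcnj3 was lower by 0.21 ± 0.10 over 15 libraries, which include Math1-Cre 1 and 2, and Kcna5 (0.42), Cacna1i (0.37) and Kcnn4 (0.37) had the largest positive differences. Over the 11 libraries the largest were those of Kcns1 (-0.53), Kcne2 (-0.30) and Kcng4 (-0.25) and of Kcnc4 (0.35), Kcnk4 (0.31) and Kcns2 (0.30), and Kcnh5 was higher in Math1-Cre by 0.23 ± 0.09 with an adjusted p of 1.00 (limma).

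Several members moved from library to library with markers of cells outside the granule lineage. Kcne2 read 6.63, 5.80, 5.29, 6.36 and 7.56 in DKO 1 to 5, 6.70, 7.08, 6.46, 7.04 and 7.75 in Math1-Cre 1 to 5, and 7.65, 7.90, 7.22, 7.23 and 6.94 in no-Cre 1 to 5. It was lowest in DKO 3 and DKO 2 and highest in no-Cre 2, Math1-Cre 5 and no-Cre 1. The mean of 7 choroid plexus and ependymal markers, all above background in at least some libraries, read 7.73, 7.83, 7.39, 7.90 and 8.47 in DKO 1 to 5, 8.26, 8.49, 7.82, 8.12 and 8.65 in Math1-Cre 1 to 5, and 8.34, 8.57, 8.11, 8.27 and 8.15 in no-Cre 1 to 5. The 5 libraries in which this mean was lowest were the 5 lowest for Kcne2. Kcne2 is itself a gene of choroid plexus epithelium, and the part of this tissue in its difference between groups was not tested.

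Scn1a, a sodium pore of inhibitory and hindbrain neurons, read 7.06, 7.25, 6.63, 7.03 and 6.96 in DKO 1 to 5, 7.30, 7.55, 7.81, 7.53 and 6.60 in Math1-Cre 1 to 5, and 7.19, 6.78, 7.45, 6.73 and 7.48 in no-Cre 1 to 5. The mean of 13 brainstem and hindbrain neuron markers, 6 of them below background in every library, read 4.27, 4.59, 3.91, 4.41 and 4.81 in DKO 1 to 5, 4.91, 4.79, 5.22, 5.08 and 3.78 in Math1-Cre 1 to 5, and 4.08, 3.96, 5.57, 4.02 and 4.77 in no-Cre 1 to 5. Math1-Cre 5, DKO 3, no-Cre 2 and no-Cre 4 were the 4 lowest libraries for both. The same 4 were lowest for the mean of 10 astrocyte and Bergmann glia markers (7.77 to 7.93). They were also lowest for that of 9 oligodendrocyte lineage markers (5.79 to 5.89). This order is thus not particular to the hindbrain markers, and DKO 3 and no-Cre 4 are narrow arrays. The part of any of these cells in the Scn1a values was not tested. Scn1a was called in no comparison. The potassium pores Kcna6 and Kcnc4 were likewise low in Math1-Cre 5 (7.06 and 7.15) and high in no-Cre 3 (7.60 and 7.87). Kcnj8, the vascular ATP-sensitive pore, read 4.76 in DKO 3 and 6.16 in Math1-Cre 5, and its regulatory partner Abcc9 read 6.63 and 7.94 in those libraries.

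**Figure D4:**
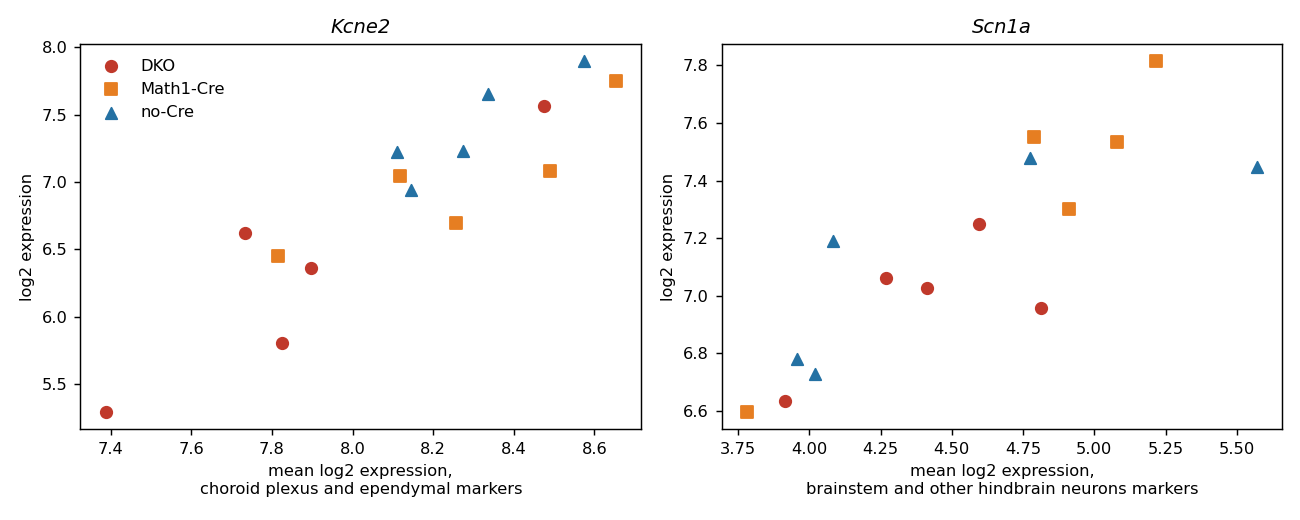
Log2 expression of Kcne2 against the mean of 7 choroid plexus and ependymal markers (left) and of Scn1a against the mean of 13 brainstem and hindbrain neuron markers (right), 1 point per library, by label. DKO 3 lies at the lower left of both panels and Math1-Cre 5 at the upper right of the left panel and the lower left of the right panel.

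Genes whose products anchor, bind or work with these channels were measured for 41 of 46 names listed, among them the FGF homologous factors, the DPP partners of Kcnd pores, ankyrins, sodium pumps and calcium release channels. In none of the 6 comparisons did limma call any of the 41. Over the 11 libraries DKO differed from no-Cre in 3 upward and 2 downward at an unadjusted p under 0.05, against 4.58% and 8.10% of all genes, with a median difference of 0.031. Nalcn, the sodium leak channel, was the 1 partner of the 41 that separated by the Gsk3a row, as 1.51% of all genes did, at 8.63 to 8.90 in the low-row libraries and at most 8.60 in the rest. Rest, the repressor that binds RE1 elements, differed by -0.25 ± 0.08 over 15 libraries (DKO against no-Cre, limma, adjusted p = 0.157). Of the 12 WNT feedback genes measured, 8 (Axin2, Lef1, Nkd1, Notum, Wif1, Sp5, Znrf3 and Lgr6) were higher in DKO over the 11 libraries against each control group, and none over 15; these genes come from earlier results of these data and are no independent evidence of direction.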

How the data were processed

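RNA of 15 mouse cerebella libraries (5 per group, from the labels) was hybridised to 1 array each. The table deposited by the authors holds log2 levels, already normalized, with a value for each row and library. RMA, Partek 6.6 and build mm9 are named, per the submitters' processing notes, with settings and order not given in the sources used here. Values (2.11 to 13.49) were taken as deposited; 5 arrays a group limit the precision.

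Of 41345 rows, 23521 had 1 symbol in the platform annotation; for genes with several rows (9 of the members) the row with the highest mean stood for the gene, leaving 22180 genes. Limma 3.58.1 (R 4.3.3) fitted a mean per group to all genes, with eBayes and Benjamini-Hochberg adjustment over all genes at 0.05, over 15 libraries and over 11. The scripts were tested on simulated data. Python 3.11.15 and matplotlib 3.10.9 made summaries and plots.

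The members, marker lists, partner list, naming rule and the 11-library fit were chosen with earlier results of these data known. Named with values were members called, those without overlap by Gsk3a row, the 3 largest differences per direction and comparison, the highest level of each subfamily and the 6 widest ranges in no-Cre; others are named as examples. Other marker lists (astrocyte, oligodendrocyte, microglia, endothelial, pericyte, cerebellar nuclei, erythroid, immediate early genes) had no gene called in any comparison. Alternatives changed gene rows, a filter, scaling, eBayes, array weights, blocks, array spread and the libraries included.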

Additional observations from a re-analysis of the deposited data

Results flagged for a closer look

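In 10 of 135 groups of 5 libraries (45 named members in 3 groups) 1 library stood apart by Dixon's criterion, which chance alone meets in about 1 in 20 groups. Math1-Cre 5 was the library in 5 of them: Cacna1a read 8.87 there against 9.40 to 9.53 in the other 4, Kcna3 7.42 against 7.83 to 8.00, Kcnma1 9.28 against 9.52 to 9.60 and Scn3b 10.44 against 10.65 to 10.69, all low, while Kcng3 was high at 4.89 against 4.46 to 4.54. DKO 5 was low for Kcnh7 (7.92 against 8.09 to 8.15) and for Kcnma1 (9.35 against 9.49 to 9.53). Math1-Cre 4 was high for Cacnb1 (9.24 against 8.88 to 8.97), Math1-Cre 3 for Kcnab2 (7.22 against 7.10 to 7.12), and no-Cre 1 for Kcnip3 (8.52 against 8.15 to 8.26).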

How the results depend on the processing

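Over the alternatives to the differences of the named members, 819 values kept direction and side of the threshold, 43 lost the call, 20 gained it and 1 turned: Kcne2, Math1-Cre against no-Cre over 11 libraries, at -0.304, moved to 0.010 without Math1-Cre 3 and ranged from -0.638 to 0.010 on leaving out 1 library. Members called in DKO against no-Cre over 15 libraries numbered 0, but 4 with array weights and 5 without the 4 narrow arrays (an alternative chosen after seeing the data), and 0 to 6 on leaving out 1 library; against Math1-Cre they numbered 0, but 2 with array weights, 2 without the narrow arrays and 0 to 3. Over 11 libraries DKO against no-Cre gave 3 members, but 1 with the compared groups alone, 8 with array weights, 0 with the replicate block, 1 with the libraries sharing a description code as a block, and 0 to 6 with 1 library left out. It gave 2 with quantile normalization (Cacna1i and Kcnj3), centring (Cacna1i and Kcnn4), the filter on low levels (Kcnh5 and Kcnj3, with Kcnn4 not tested), array spread as a covariate (Cacna2d3 and Kcnn4) and without the narrow arrays (Kcnj9 and Kcnn4). The call of Kcnh5 was lost with the replicate block against no-Cre (adjusted p = 0.18) and against Math1-Cre (adjusted p = 0.116, limma). DKO against Math1-Cre gave 1, but 0 with the compared groups alone, 8 with array weights, 0 with the replicate block, 2 with array spread as a covariate, 2 without the narrow arrays and 1 to 2 with 1 left out. Where a group kept 1 library it was assumed to vary like the others. Without the 4 narrow arrays the 15-library fit kept only DKO 1, whose Gsk3a row goes against its label, and DKO 2 in the DKO group. All genes called ranged over these settings from 0 to 804 (15 libraries, no-Cre), 0 to 773 (15, Math1-Cre), 42 to 2173 (11, no-Cre) and 25 to 1999 (11, Math1-Cre), and with 1 library left out from 0 to 1546, 0 to 1288, 80 to 1060 and 44 to 446. The cause was not tested. Same-numbered libraries correlated in their deviations from group means by -0.303 to 0.299 over 15 pairs. Pairs with different numbers were not set beside them, and the group means leave the Gsk3a row and array spread in these deviations. The correlations therefore do not show whether the numbers pair the libraries. No member or gene was called between the control groups under any of these settings. Members below background, Kcnn4 among them, have compressed differences.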

Other observations

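Kcnn4 starts 867 kb from Gsk3a on chromosome 7 in GRCm38.p6. Of 97 measured genes that start within 2 Mb of Gsk3a, 2 separated the libraries by the Gsk3a row without overlap (2.06%, against 1.51% of all genes): Kcnn4, and Zfp180, a zinc finger gene named here after its values were seen, which starts 1155 kb away and read 5.78 to 6.35 in the low-row libraries and 6.60 to 7.18 in the others. Kcnn4 is the 1 channel gene among the 97.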
